A study of Mus musculus with 5 samples.

Results

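In mouse bone marrow macrophages, 425 genomic regions were recovered as a peak by at least 3 of 4 chromatin immunoprecipitation sequencing (ChIP-seq) libraries, whichever antibody had been used. They were chosen by peak presence alone, by merging peaks of the 4 lists that overlapped by at least 1 bp and keeping each merged region that held a peak of 3 or 4 lists. They made up 0.38% of 111856 merged regions. All 4 lists held 174 of them and exactly 3 lists held 251, while 2413 regions were held by 2 lists and 109018 by 1 list. Since the peak calls selected these regions, their number, pileup and fold enrichment are given as a description, and the sole test compares the antibodies over libraries on regions that all 4 lists held. With 1 library left out and a peak demanded of each of the 3 others, 215 to 252 regions met the rule.

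The cells came from C57Bl/6 mice. Source and cell type labels place them in the M2 state, reached by polarization in vitro, whereas all titles carry M0, which the labels leave unexplained. Formaldehyde-fixed, sonicated chromatin was precipitated with an antibody to c-Maf (libraries numbered 3 and 4) or with normal immunoglobulin of rabbit, the isotype control (also 3 and 4), and 1 unprecipitated input library of number 4 was the control for every peak list. The series calls the 2 numbers biological replicates, no label names separate animals or cultures, and a peak list cannot check the cell type by its markers. Differences between libraries may therefore be technical.

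c-Maf is a basic leucine zipper transcription factor that binds Maf recognition elements, and it is known in macrophages for its part in alternative activation. Normal immunoglobulin has no specific target in chromatin, and input is chromatin that met no antibody. Many mouse genes lie in arrays of near-identical copies, such as the Speer4 genes of chromosome 5, whose products are glutamate-rich proteins of the testis. Short reads from such copies can match several places, and how the authors placed them is not stated, so values at gene copies are uncertain as to the copy they came from.

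Promoter sequence was at hand for 3 of the regions, in 300-base windows around annotated transcription starts (RefSeq, GRCm38.p6, 5′ to 3′ along the gene). They are shown because they are the places where a recurrent region met a gene start. Capitals mark the bases that the region covered. Gm33862, a long noncoding RNA gene inside the Sfi1 cluster, has its window at chr11:3136826-3137125 on the plus strand. Gm40237, another long noncoding RNA gene, has its window at chr4:118547156-118547455 on the plus strand. Gm9758, a gene of the Speer4 array, has its window at chr5:14914840-14915139 on the minus strand.
Gm33862: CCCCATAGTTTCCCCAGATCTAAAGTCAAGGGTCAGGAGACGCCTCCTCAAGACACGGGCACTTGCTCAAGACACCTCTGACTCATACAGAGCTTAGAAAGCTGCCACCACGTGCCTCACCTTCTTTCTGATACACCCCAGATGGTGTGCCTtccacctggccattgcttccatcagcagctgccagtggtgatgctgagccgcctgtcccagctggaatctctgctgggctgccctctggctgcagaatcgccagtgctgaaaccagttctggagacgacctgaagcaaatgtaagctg
Gm40237: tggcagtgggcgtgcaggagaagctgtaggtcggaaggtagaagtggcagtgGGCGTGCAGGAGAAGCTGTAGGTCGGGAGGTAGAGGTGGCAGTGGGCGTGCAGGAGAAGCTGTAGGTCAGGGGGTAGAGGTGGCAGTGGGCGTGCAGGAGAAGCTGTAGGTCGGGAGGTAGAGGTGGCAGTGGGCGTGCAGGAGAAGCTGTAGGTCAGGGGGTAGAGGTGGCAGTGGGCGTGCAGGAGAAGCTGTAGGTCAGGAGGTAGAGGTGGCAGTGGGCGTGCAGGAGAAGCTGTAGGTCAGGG
Gm9758: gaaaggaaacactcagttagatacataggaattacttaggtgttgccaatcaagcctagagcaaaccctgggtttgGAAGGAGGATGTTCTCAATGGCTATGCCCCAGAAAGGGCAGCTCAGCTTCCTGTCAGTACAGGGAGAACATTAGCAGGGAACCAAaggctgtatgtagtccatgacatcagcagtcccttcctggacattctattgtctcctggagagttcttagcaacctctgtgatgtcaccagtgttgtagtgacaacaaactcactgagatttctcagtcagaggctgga

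The Gm40237 window was a tandem repeat. Shifted by 88 bases against itself it was identical at 97.6% of positions, and the region covered 248 of its 300 bases. Of 32851 promoter windows, 18 (0.0548%) reached 80% identity at any shift from 5 to 150 bases. The Gm33862 and Gm9758 windows reached 34.3% and 33.0% at their best shifts. The Maf half-site TGCTGA, read on both strands, occurred 3 times in the Gm33862 window, once in that of Gm9758 and not in that of Gm40237, and no copy lay in a covered part. Of all windows of that length, 19.5% held it at least once. With 3 windows, nothing is read from this for the other recurrent regions.

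At Gm9758 the peaks had a pileup, the number of overlapping extended tags at the summit scaled to the input's depth, of 19.4 in c-Maf antibody library 3, 20.7 in c-Maf antibody library 4 and 20.6 in isotype library 4. Isotype library 3 had no peak there. Fold enrichment, the ratio of pileup to the local input level with 1 added to both, was 5.10, 5.43 and 6.46 in the same order, the highest being an isotype value. The covered 85 bases were nearly the same in 12 other promoters of Speer4-type genes on chromosome 5, 8 of them in the same 2 arrays and 4 (Speer4a, Speer4b, Speer4f1 and Speer4f2) outside. Of these, 3 are shown because they span the range of likeness to Gm9758. Here capitals mark bases that differ from, or are missing in, the Gm9758 stretch above, and a base missing in the copy leaves no mark. Gm17019 lies at chr5:15033088-15033173 on the minus strand, Speer4d at chr5:15618898-15618983 on the plus strand and Speer4a at chr5:26039633-26039717 on the minus strand.
Gm17019: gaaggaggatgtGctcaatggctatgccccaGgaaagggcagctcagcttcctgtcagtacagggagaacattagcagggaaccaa
Speer4d: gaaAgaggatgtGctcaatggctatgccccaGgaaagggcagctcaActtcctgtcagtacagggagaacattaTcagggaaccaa
Speer4a: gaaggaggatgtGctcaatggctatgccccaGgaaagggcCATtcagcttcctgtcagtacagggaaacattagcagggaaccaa

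Between 80 and 84 aligned bases of the stretch matched Gm9758 in each of the 12. Speer4e, with the same letters as Gm17019, had 1 peak there, in isotype library 4 with a pileup of 8.83, and the other 11 stretches had a peak in no list. Over the whole aligned windows, identity to Gm9758 ran from 92.7% for Speer4f2 to 98.8% for Gm21190. Of the 26 protein-coding genes with a promoter entry and a recurrent region within 1 kb of a gene boundary, 12 (46.2%) shared a run of 50 bases with another promoter. Among genes of any kind in the table, 2369 of 27025 (8.77%) did. The Maf half-site lay in a promoter window of 15 of the 26 (57.7%), against 21.7% of the 27025. All 9 genes of the 2 Speer4 arrays were among the 26 and among the 12. The Ugt1a genes near a region all met the same one, chr1:88219182-88219280. These shares therefore do not count separate hits. Either end of a gene counted as a boundary, so a region need not lie near the promoter window that was searched. In Speer4e, 1 region lay 203 bp from the far boundary. Nothing is read from these shares about Maf sites at the regions. Sequence of the remaining regions was not analysed here.

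The 4 lists differed in length more than in depth. Isotype library 3 stood apart, with 58732 peaks against 15568 for isotype library 4, 23434 for c-Maf antibody library 3 and 17620 for number 4, from 21655683 to 22017759 tags. The libraries held, of the 425 regions, 346 (isotype 3), 381 (isotype 4), 349 (c-Maf antibody 3) and 373 (c-Maf antibody 4), counts that the rule itself keeps close. Of the regions held by exactly 3 lists, 79 lacked isotype 3, 76 lacked c-Maf antibody 3, 52 lacked c-Maf antibody 4 and 44 lacked isotype 4. Peaks in all 425 regions were 0.62% of the isotype 3 list and between 1.54% and 2.56% of the others.

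Most of the 425 regions lay where the input itself was high, with 73.6% at a local input level of 2 or more against 0.848% of regions held by 1 list. That level, recovered from pileup and fold enrichment, had a median of 0.474 tags in regions held by 1 list, 0.504 in those held by 2, 2.84 in those held by 3 and 14.4 in those held by all 4. In regions held by 1 list, 43.9% of peaks were at the genome-wide level that MACS takes as a floor, so the low medians are in part that floor. Pileup ran along with it, with medians of 4.89, 5.39, 12.7 and 35.4, while fold enrichment ran the other way from 2 lists on, with medians of 3.65, 3.95, 3.37 and 2.52. On either side of the line that the rule draws, an input of 2 or more was found in 11.5% of regions held by 2 lists and in 61.8% of those held by 3. Merged width and the spread of summits grow as more peaks are merged, so they are given as sizes alone. Width went from a median of 107 bp in 2 lists to 136 bp in 3 and 180 bp in 4, and the summits within a region spread over 30, 41 and 55.5 bp.

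**Figure D1:**
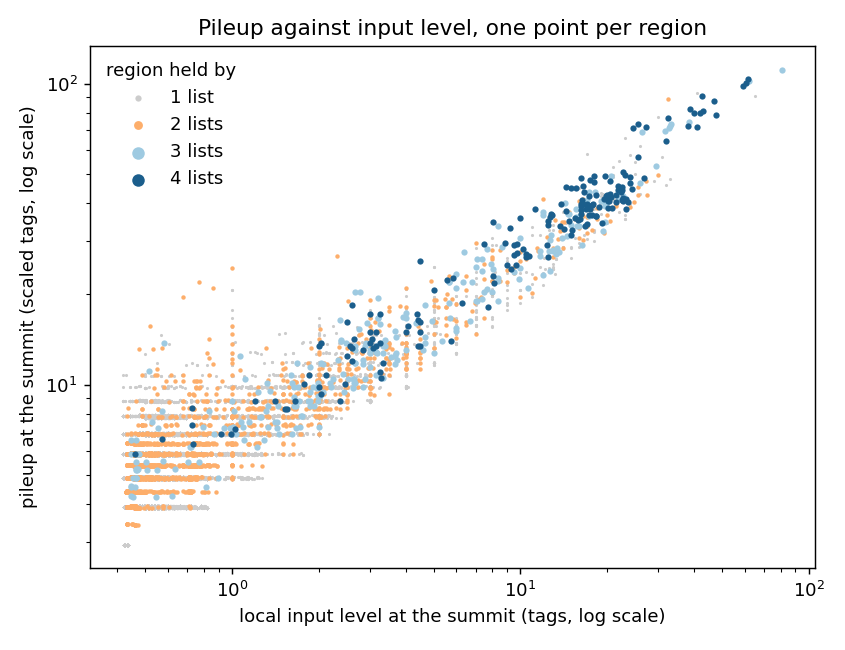
Mean pileup at the summit (scaled tags, log axis) against mean local input level (tags, log axis), 1 point for each merged region, coloured by how many lists held it. Regions held by all 4 lists (dark blue) lie mostly toward the upper right, with a median pileup of 35.4 at a median input of 14.4, and the bulk of regions held by 1 or 2 lists lie below an input of 1.

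Within each list the recurrent regions' peaks were high in pileup but not in fold. In c-Maf antibody library 3 their median pileup was 19.4 against 5.82 over all its peaks, and in isotype library 3 it was 19.6 against 3.92. Median fold enrichment was 2.88 against 3.89 and 2.83 against 3.46 in those 2 libraries. A q-value of 0.05 or smaller was reached by 86 of 360 of these peaks in c-Maf antibody 3 (23.9%, against 3.06% of its whole list), 114 of 382 in c-Maf antibody 4 (29.8%, against 2.87%), 73 of 364 in isotype 3 (20.1%, against 0.415%) and 104 of 398 in isotype 4 (26.1%, against 2.62%). Peaks that strong lay in recurrent regions for 12.0% of the c-Maf antibody 3 list and 22.6% to 29.9% of the others. The rule used the same peaks, so nothing is read from these shares.

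On assembled chromosomes the regions were crowded into few places. There were 332 of them (78.1%), 11 on sequence assigned to chromosome 1 but not placed on it, and 82 (19.3%) on unplaced sequence. Chromosome 11 held 68, chromosome 5 held 66, chromosome 4 held 36, chromosome 1 held 33 and chromosome 8 held 30, and the Y chromosome held none. Chained at distances of up to 100 kb, the 332 regions formed 34 clusters of at least 2 and left 85 alone. The 3 largest clusters, at Sfi1 and in 2 Speer4 arrays, held 122 regions (36.7%) in 490.1 kb. Within 500 kb of the first region of a chromosome lay 77 of the 332 (23.2%), on 7 chromosomes, against 0.612% of all 111278 assembled regions. The Sfi1 cluster supplied 64 of these 77, and without it 13 of 268 (4.85%) remained.

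**Figure D2:**
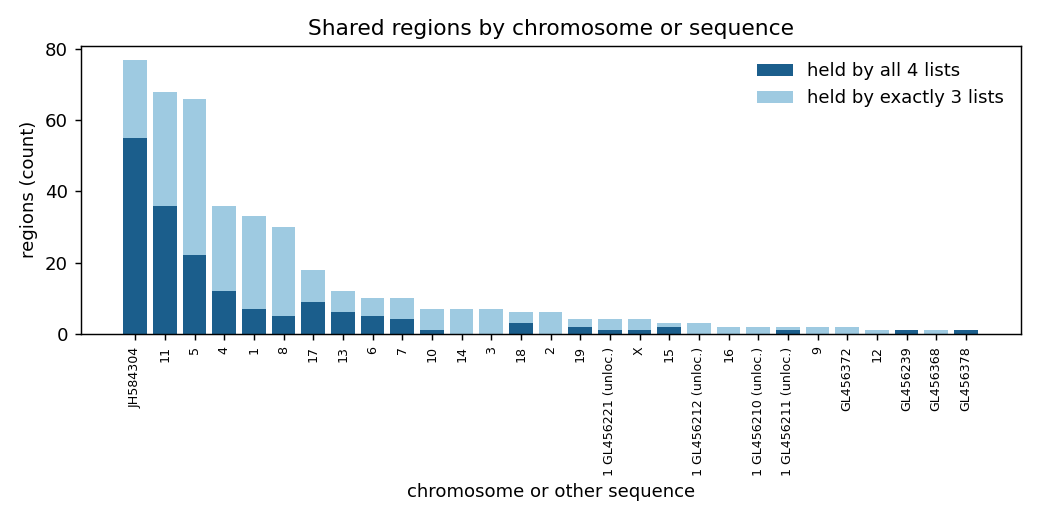
Number of regions held by exactly 3 lists (light) and by all 4 lists (dark), stacked, on each chromosome or other sequence with at least 1 such region (unloc., assigned to a chromosome but not placed on it). The unplaced sequence JH584304 has the tallest bar with 77 regions, 55 of them held by all 4 lists, followed by chromosomes 11 and 5 with 68 and 66.

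The largest cluster lay over Sfi1, which encodes a centrin-binding protein of the centrosome. At chr11:3112942-3199991 it held 64 recurrent regions, 35 of them in all 4 lists, among 132 merged regions in that window (48.5%). No list had a peak on chromosome 11 before its first base. Median pileup was 34.9 and 32.6 in c-Maf antibody libraries 3 and 4 and 31.3 and 29.4 in isotype libraries 3 and 4, each over the 54 to 60 regions that the library held, and median fold enrichment over all 64 was 2.48. The 2 antibodies thus gave similar heights here, with the c-Maf antibody medians on top.

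Inside Sfi1 itself (chr11:3131850-3203347) there were 60 regions, 34 in all 4 lists. Both pileup and input were higher in the last of 4 equal segments, toward the upper coordinate. Median pileup in the 4 segments was 24.2, 27.1, 34.0 and 42.8, and median input was 9.50 in the first segment and 20.4 in the last. Fold enrichment was 2.59, 2.61 and 2.59 in the first 3 segments and 2.05 in the last. Recurrent regions numbered 15, 14, 11 and 20 by segment, and those held by all 4 lists 5, 6, 7 and 16. Every library had its highest median in the last segment, with 46.6 (c-Maf antibody 3), 44.4 (c-Maf antibody 4), 40.1 (isotype 3) and 43.2 (isotype 4).

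**Figure D3:**
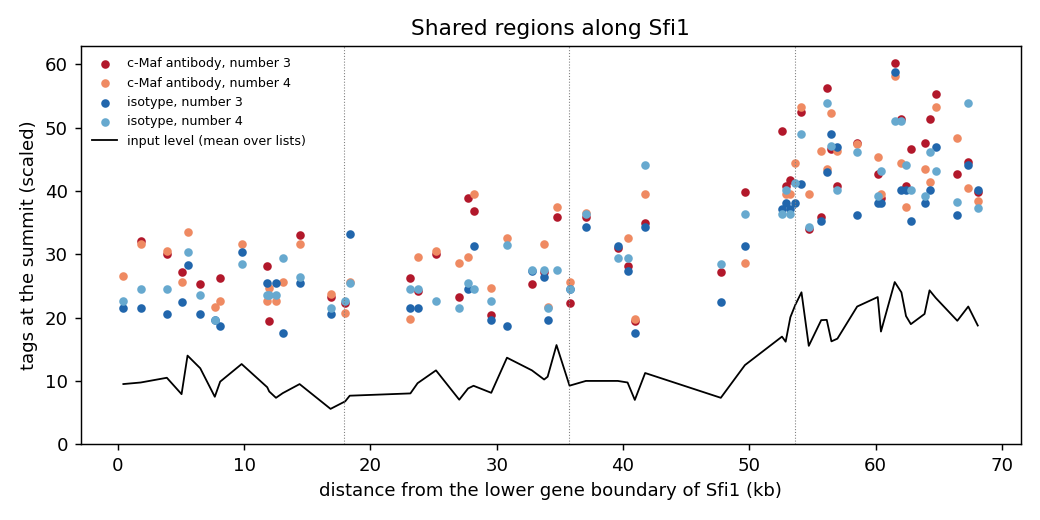
Pileup at the summit in each library (points, scaled tags) for every recurrent region inside Sfi1, by distance from the lower gene boundary (kb), with the mean local input level as a line and dotted lines between 4 equal segments of the gene. All 4 libraries and the input are higher in the last segment, where the median pileup is 42.8 and the median input 20.4.

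Of the 34 regions in Sfi1 held by all 4 lists, 13 had both c-Maf antibody pileups above both isotype pileups, none had both below and 21 overlapped. Per base of the fragment length of each library, 5 had both above and 7 both below. Over all 174 regions held by all 4 lists, 44.3% had both c-Maf antibody pileups above and 2.87% both below. Per base of fragment length these shares were 16.1% and 19.5%. At chr11:3159915-3160111, one of the 13, pileup was 36.9 and 39.5 with the c-Maf antibody and 31.3 and 24.5 with the isotype. At chr11:3168807-3169010 it was 35.9 and 36.5 with the c-Maf antibody (numbers 3 and 4) and 34.3 and 36.3 with the isotype. At chr11:3188274-3188418 the values were 46.6, 52.3, 48.9 and 47.1, and at chr11:3193010-3193702, the highest in the gene, 60.2, 58.2, 58.7 and 51.0. In these last 3 regions the values of the antibodies overlapped. The region at the Gm33862 start shown above was lower, with 27.2 in c-Maf antibody 3, 25.7 in c-Maf antibody 4 and 22.5 in isotype 3, and isotype 4 had no peak. Beside Sfi1, Pisd-ps1, a transcribed pseudogene copy of Pisd, held 3 recurrent regions, and chr11:3127112-3127385 in it reached fold enrichments of 3.27 and 4.55 with the c-Maf antibody and 4.65 and 3.71 with the isotype.

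Pisd encodes the mitochondrial phosphatidylserine decarboxylase, which makes phosphatidylethanolamine. The gene, on chromosome 5, held 1 recurrent region at chr5:32736940-32737043, 639 bp from a gene boundary. Pileup there was 20.4 and 18.8 with the c-Maf antibody and 12.7 and 16.7 with the isotype, so the c-Maf antibody values were higher in both libraries, and fold enrichment was 4.28, 4.94, 3.43 and 5.89, where the groups overlapped. Pisd-ps2, on chromosome 17, held 2 more. The one at chr17:3082093-3082214 had pileups of 27.2, 25.7, 25.4 and 27.5 and fold enrichments between 1.89 and 2.37.

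The unplaced sequence JH584304 held 77 recurrent regions, 55 of them in all 4 lists, or 18.1% of the 425. Of the 133 merged regions on it, 57.9% were recurrent, 26 were held by 2 lists and 30 by 1. They covered 27.1% of the 65.8 kb between bases 415 and 66235, with a median gap of 425 bp and a longest of 5691 bp. Median pileup was 41.7 and 39.5 with the c-Maf antibody and 36.2 and 37.8 with the isotype, and median fold enrichment was 2.05 and 2.14 against 2.15 and 2.22. The c-Maf antibody medians, each over the regions that the library held, were thus the higher ones in pileup and the lower ones in fold.

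Pileup was even along JH584304. Cut into 4 equal segments, it gave medians of 38.1, 40.4, 38.5 and 38.3 over 18, 22, 22 and 15 regions, unlike Sfi1 with its higher last segment. Single regions ranged from 27.8 to 53.2 in mean pileup, and the highest, at bases 66112 to 66235, was the last on the sequence. The other unplaced sequences held 1 or 2 regions each. These were 2 on GL456372 and 1 each on GL456239, GL456368 and GL456378, with mean pileups from 6.85 to 9.31. Sequence assigned to chromosome 1 but not placed held 4 on GL456221, 3 on GL456212 and 2 each on GL456210 and GL456211, with mean pileups from 6.84 to 13.8. None of these reached the heights on JH584304, whose lowest was 27.8. Not assembled sequence held 0.375% of regions in 1 list, 3.15% in 2, 13.5% in 3 and 33.9% in all 4.

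The Speer4 arrays formed the next 2 clusters by size. At chr5:15464319-15714209 there were 34 recurrent regions (11 in all 4 lists) among 147. That span takes in Gm21149, Gm21190, Gm21083, Speer4d, Speer4cos and Speer4c. At chr5:14900613-15053789 there were 24 (9 in all 4 lists) among 113, in a span with Gm9758, Speer4e, Speer8-ps1, Gm10354 and Gm17019. Inside a gene of any kind lay 16 of the 34 and 12 of the 24. Some of those genes were long noncoding RNA genes, such as Gm30417 and Gm30613 with 4 each. Median pileup in the first was 14.6 and 15.8 with the c-Maf antibody and 14.7 and 14.7 with the isotype, and in the second 16.0 and 16.8 against 12.7 and 16.7. Each of these medians covers only the regions that the library held. Median input was 3.28 and 3.33 and median fold enrichment 3.42 and 3.59, so both arrays were lower in input and higher in fold than Sfi1.

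Of 15 genes with a Speer symbol, 5 had a recurrent region within 5 kb (Speer4c, Speer4cos, Speer4d, Speer4e and Speer8-ps1), against 0.436% of all 21770 protein-coding genes. The 15 include pseudogenes, Speer4cos and Speer8-ps1 among them, which that background leaves out. Speer1, Speer2, Speer3, Speer4a, Speer4b, Speer4f1, Speer4f2, Speer5-ps1, Speer6-ps1 and Speer9-ps1 had none. The transcribed pseudogenes Speer4cos and Speer8-ps1 each held 6. This list was chosen because the arrays were already known to hold such regions, so its share is a description.

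Distances from the start were taken for the 13 Speer4-type genes with a promoter entry and counted in 1-kb bins over the 9 copies in the arrays. Between 4 and 5 kb downstream of the start there were 5 regions in 4 copies (Gm10354, Gm21083, Gm21149 and Speer4e), and between 8 and 9 kb 5 regions in 4 copies (Gm10354, Gm21083, Gm9758 and Speer4c). No region lay between 1 and 3 kb downstream in any copy. Several other bins held regions in 3 copies, such as 5 to 6 kb and 6 to 7 kb, and others were empty too. Whether the bins differ beyond such small counts was not tested. Those nearest to 4.5 kb were also near the far boundary of the gene, at 203 bp in Speer4e, 183 bp in Gm21083, 211 bp in Gm10354 and 332 bp in Gm21149. Speer4f1 had 3 regions upstream, at -7864, -7254 and -6749 bp from its start, and Speer4a, Speer4b and Speer4f2 had none within 10 kb.

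**Figure D4:**
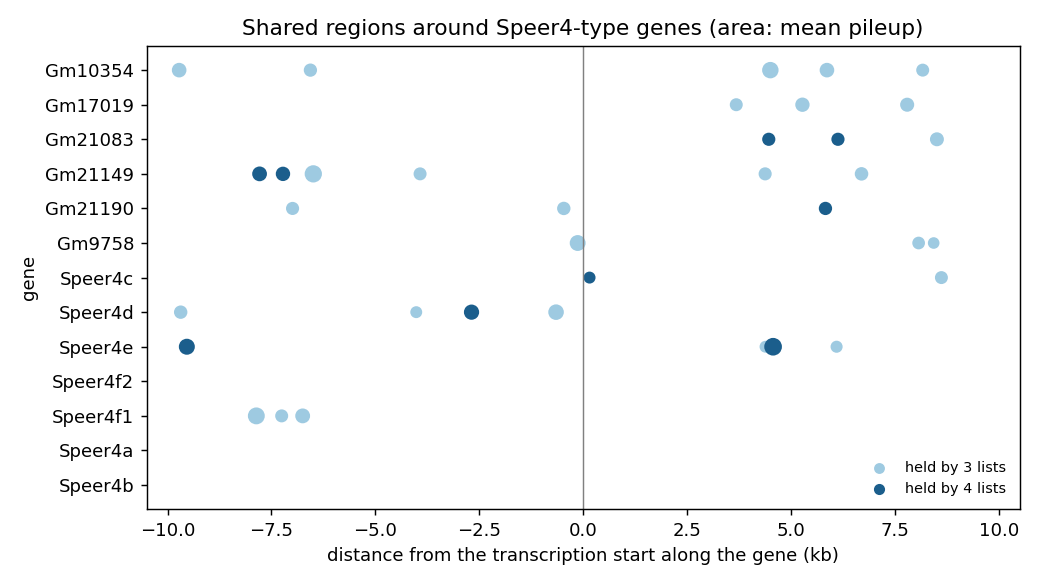
Recurrent regions within 10 kb of the transcription start of each of 13 Speer4-type genes, by distance along the gene (kb, positive downstream). Point area follows mean pileup and dark points are regions held by all 4 lists. Points recur between 4 and 5 kb in 4 copies, and Speer4a, Speer4b and Speer4f2 have none.

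The highest of the plotted regions was in Speer4e at chr5:14933834-14933975. Pileup there was 22.3 and 26.6 with the c-Maf antibody and 28.4 and 25.5 with the isotype, and fold enrichment was 3.89, 5.53, 5.88 and 4.42, with overlapping groups. At the matching place in Gm10354, chr5:14974355-14974436, pileup was 22.3 and 22.7 with the c-Maf antibody and 20.6 with isotype 4, and isotype 3 had no peak. Gm21083, at chr5:15581608-15581909, had 16.5 and 14.8 against 9.79 and 11.8, where both c-Maf antibody values were the higher. Near Speer4d, the region at chr5:15616367-15616460 had 15.5 and 23.7 against 14.7 and 19.6, and that at chr5:15618373-15618521, 578 bp from the gene, 20.7 in c-Maf antibody 4, 19.6 in isotype 3 and 17.7 in isotype 4. Speer4c had, at chr5:15714025-15714209, pileups of 9.71 and 11.8 against 10.8 and 9.81.

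Of the clusters described here, the one at a noncoding RNA gene had the highest median pileup. 2700054A10Rik, a long noncoding RNA gene on chromosome 17, contained 9 of the 11 regions of the cluster chr17:13550716-13591573. Median pileup of the cluster was 98.5 and 93.8 with the c-Maf antibody and 83.2 and 83.4 with the isotype, at a median input of 42.8 and a median fold enrichment of 1.93. c-Maf antibody 3 held 6 of the 11 regions and each of the other libraries held all 11, so its median covers fewer regions than theirs. At chr17:13552763-13553154 the 4 values were 106, 112, 94.9 and 102, with fold enrichments of 1.33, 1.72, 1.74 and 2.06.

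These heights neared the most that the method allows. With 1 tag kept per position and strand, a pileup cannot pass 2 tags per base of the fragment length after scaling, which came to 122.3 (c-Maf antibody 3), 118.4 (c-Maf antibody 4), 103.8 (isotype 3) and 109.9 (isotype 4). The highest peaks of the 4 lists reached 96.0%, 97.5%, 97.2% and 92.9% of that. The region with the highest mean pileup on an assembled chromosome, chr15:75086659-75086788, lay 21.4 kb from Ly6c2, a monocyte surface antigen gene. It had 117 and 115 with the c-Maf antibody and 101 with isotype 3, at an input of 80.7 and a mean fold enrichment of 1.37, and isotype 4 had no peak. Of the peaks above the midpoint of their limit, recurrent regions held 19 of 19 and 24 of 26 in the c-Maf antibody lists and 27 of 30 and 26 of 32 in the isotype lists.

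Short clusters of high pileup lay at Gm40237 and in Smo. Gm40237, whose repeated start is printed above, lay under or beside 4 regions at chr4:118547208-118548707, a window with 5 merged regions in all. The region at its start had pileups of 66.97 and 69.08 with the c-Maf antibody and 54.8 and 66.7 with the isotype, at a mean input of 32.0. Smo encodes Smoothened, the membrane transducer of Hedgehog signalling. All 4 merged regions at chr6:29747921-29748930 inside it were recurrent. At chr6:29748107-29748172 pileup was 65.0 and 76.0 with the c-Maf antibody and 65.6 and 78.5 with the isotype, and at chr6:29748394-29748565 it was 81.5, 81.9, 84.2 and 81.4, within a narrow range in all libraries.

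Further clusters lay over genes with copies nearby. The Ugt1a genes, which encode glucuronosyltransferases for bilirubin and drugs and share their last exons, had 1 common region at chr1:88219182-88219280 within 1 kb of 9 of them, with pileups of 18.4, 13.8, 13.7 and 13.7 in c-Maf antibody 3 and 4 and isotype 3 and 4. It belonged to a cluster of 9 at chr1:88219182-88308200 that reached Mroh2a, Hjurp, a histone chaperone gene of the centromere, and Trpm8, a cold-sensing channel gene, with a median pileup of 12.1. Zfp978, a zinc finger gene, lay in a cluster of 8 at chr4:147336877-147423399 with a median pileup of 11.3. Of 419 genes with a Zfp symbol, 6 had a recurrent region within 5 kb (1.43%, against 0.436% of protein-coding genes), all on chromosome 4 and with 13 regions between them, so they are not separate hits. They were Zfp600, Zfp978, Zfp979, Zfp988, Zfp992 and Zfp993.

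Chromosome 1 had a second cluster, of 7 at chr1:85072332-85273769 over A530032D15Rik, Gm38510 and C130026I21Rik, with a median pileup of 8.47. On chromosome 13, 7 regions at chr13:119596689-119616652 in and beside Tmem267 had a median of 29.1 at an input of 12.4. In Snhg14, the host transcript of many small nucleolar RNAs in the imprinted Prader-Willi region, 6 regions at chr7:59733567-59862575 had a median of 10.1, and none of the table's 1330 small nucleolar RNA genes held a recurrent region. Chromosome 8 had 2 clusters of 6, at chr8:19976415-20109951 over Gm20778 with a median of 10.1 and at chr8:20660577-20698648, 13.8 kb from Gm21119, with 9.62. The 5 regions at chr4:3083437-3253153, a span that takes in the vomeronasal receptor gene Vmn1r2 and its neighbours, had 10.8. Of these 5, only 1 lay inside a gene, the long noncoding RNA gene Gm46840. The medians of these clusters, apart from Tmem267, were below that of the recurrent regions as a whole, 17.1.

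On chromosome 10 the 4 regions at chr10:58223138-58235276 lay in LOC100504180, Duxf3 and Gm4981. Duxf3 belongs to the double homeobox family of early embryo activators. Its region at chr10:58229754-58229875 had pileups of 20.4 and 14.8 with the c-Maf antibody and 13.7 with isotype 4. LOC100504180 had one at chr10:58225222-58225464 with 30.6 in c-Maf antibody 4, 24.5 in isotype 3 and 23.6 in isotype 4, and Gm4981 one at chr10:58235138-58235276 with 16.5, 16.8 and 15.7 in both c-Maf antibody libraries and isotype 3.

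For the other copy families the background share of 0.436% leaves few or no genes to be found in all but the largest lists, so their counts are given as values. Within 5 kb there were 2 of 367 Vmn1r genes, 4 of 271 Vmn2r genes, all of them pseudogenes, 1 of 48 Pramel genes and 1 of 20 Cyp2c genes. None was found at 1427 Olfr genes, 22 Ly6 genes, 45 Mup genes, 40 Defa genes, 42 Rhox genes, 53 Obox genes, 11 Skint genes, 14 Klra genes, 16 Xlr genes, 18 Esp genes or 6 Smok genes, nor at the smaller Slx, Ssty, Sly, Srsy, Rbmy, Ott, Erdr1 and Mid1 groups. Nor was a recurrent region found within 5 kb of any of 27 macrophage genes, where at a background of 0.436% none or few would be found. Regions held by 2 lists lay near 7 of them (Mertk, C1qa, C1qb, C1qc, Itgam, Aif1 and Csf1r) and near 3.91% of all protein-coding genes. The 27 were chosen with earlier results of these data known, and the C1q genes form a cluster, so the 7 are not separate hits. Which 2 lists held those regions is not given here, and nothing is read from this share.

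The share of regions inside protein-coding genes rested on Sfi1, and that inside genes of any kind did so only in part. Of the 332 on assembled chromosomes, 63.6% lay in a gene of any kind against 49.1% of regions held by 1 list, and 44.0% (Wilson 95% interval 38.7% to 49.4%) lay in a protein-coding gene against 39.7% (39.37% to 39.96%). Sfi1 held 60 of them, and without it 55.5% lay in any gene and 31.6% (86 of 272) in a protein-coding gene, so the second difference turned direction. The intervals treat neighbouring regions as independent and are too narrow. Among other gene kinds, 16 of 12637 long noncoding RNA genes held one (0.127%), 14 of 9853 pseudogenes (0.142%), 6 of 476 transcribed pseudogenes (1.26%) and none of 1228 microRNA genes, against 73 of 21770 protein-coding genes (0.335%).

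A smaller set had a low local input level. There were 54 regions (12.7%) with an input below 1, of which 7 were in all 4 lists, and 49 lay on 17 assembled chromosomes with only 4 in clusters of 3 or more. Their median pileup was 5.87 and their median fold enrichment 4.22. Of their peaks, 62 of 169 (36.7%) were at the genome-wide level of their list, 0.419 to 0.499 tags, which MACS takes in place of a lower local count and which is not a measured input there. Folds at that level rest on the genome size setting. The 216 regions with an input from 1 to 10 had 13.1 and 3.43, and the 155 with an input of 10 or more had 39.9 and 2.14. The recurrent set therefore ranged from tall peaks over high input to short, scattered ones over low input.

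The 5 highest mean fold enrichments on assembled chromosomes came from regions away from the 3 largest clusters. At chr1:157877284-157877355, 308.9 kb from Sec16b, an endoplasmic reticulum export gene, fold enrichment was 8.64 in c-Maf antibody 4, 6.81 in isotype 3 and 12.6 in isotype 4, the highest of that whole list, at an input of 0.581. Inside Tmem232, at chr17:65475107-65475189, it was 8.83 and 6.52 with the c-Maf antibody and 8.62 with isotype 4. At chr12:75242570-75242662, 65.2 kb from the potassium channel gene Kcnh5 and the only recurrent region on chromosome 12, it was 8.95, 3.62 and 9.45 in the same libraries. The region chr1:47593802-47593866, 668.0 kb from the zinc transporter gene Slc39a10, had 11.2 and 3.46 with the c-Maf antibody and 6.86 with isotype 3. In Kcnj3, which encodes an inward rectifier potassium channel subunit, chr2:55553319-55553402 had 5.38 in c-Maf antibody 3, 7.05 in isotype 3 and 5.04 in isotype 4. In each of these 5 regions the isotype values overlapped or exceeded those of the c-Maf antibody, and each was missing from 1 list.

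A few low-input regions lay at gene boundaries. Il19, a cytokine gene of the IL-10 family, had one at chr1:130944732-130944877, 580 bp from a boundary, with pileups of 5.82 and 5.92 with the c-Maf antibody and 5.89 with isotype 4. Hs6st3, a heparan sulfate sulfotransferase gene, had one at chr14:119869503-119869742, 73 bp from a boundary, with 4.93 in c-Maf antibody 4, 3.92 in isotype 3 and 6.87 in isotype 4. In both regions the values of the antibodies overlapped. With more input, Elobl had one at chr11:88967820-88968086 (15.5, 11.8 and 13.7 in both c-Maf antibody libraries and isotype 4), and 4931408C20Rik one at chr1:26688058-26688286 (10.7 and 13.8 against 12.7 and 14.7). The neighbours Gm51573 and Gm51593 on chromosome 8 had regions within 1 kb, with mean pileups of 11.02 and 8.82.

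The 174 regions held by all 4 lists allowed the antibodies to be set side by side on the same places. Median pileup was 36.9 and 36.5 in c-Maf antibody libraries 3 and 4 and 31.3 and 34.3 in isotype libraries 3 and 4. Both c-Maf antibody values were the higher ones, by 0.16 on the log2 scale or a ratio of 1.12 (exact permutation test over the 4 libraries, two-sided, p = 0.3333, the smallest this design allows). Per region the ratio of the antibody means ran from 0.707 to 1.62 with a median of 1.10.

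The fragment length to which tags were extended was longer in both c-Maf antibody libraries, so over these 4 libraries it cannot be told apart from the antibody. It was 63 bp (c-Maf antibody 3), 60 bp (c-Maf antibody 4), 53 bp (isotype 3) and 56 bp (isotype 4). Pileup per base of fragment length had medians of 0.585 and 0.609 with the c-Maf antibody and 0.591 and 0.613 with the isotype, a log2 difference of -0.01. Fold enrichment had medians of 2.29 and 2.53 against 2.51 and 2.62, a log2 difference of -0.09. On both measures the groups overlapped.

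Pileup was higher in both c-Maf antibody libraries than in both isotype libraries in 77 of 174 regions (44.3%), lower in both in 5 (2.87%) and overlapping in 92. Per base of fragment length, 28 regions (16.1%) had both c-Maf antibody values on top and 34 (19.5%) had both below. In fold enrichment the counts were 25 (14.4%) and 29 (16.7%). On the 115 regions of assembled chromosomes the log2 differences were 0.17 in pileup, -0.04 in fold enrichment and -7.61e-05 per base of fragment length.

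**Figure D5:**
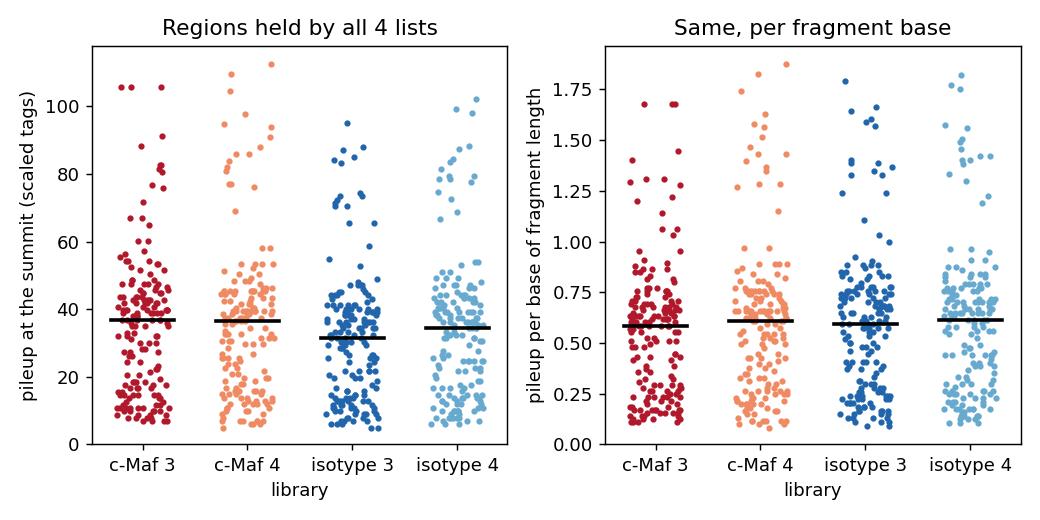
Pileup at the summit of each of the 174 regions held by all 4 lists, by library (left, scaled tags), and the same divided by the library's fragment length (right), with the median as a bar. The left medians are 36.9 and 36.5 (c-Maf antibody) and 31.3 and 34.3 (isotype), and the right medians lie between 0.585 and 0.613.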

How the data were processed

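ChIP-seq peak lists of 2 c-Maf antibody and 2 isotype libraries were used, and the input only as it enters them. Per the file headers, the authors called peaks per library with MACS 2.1.1.20160309 at a p-value cut-off of 0.01, keeping 1 tag per position, with the human effective genome size and the number 4 input as control. The submitters' processing notes name mm10, FastQC, MACS 1.4.2 and MACS2. The deposited values are a pileup signal at the summit in scaled tags, a fold enrichment (a ratio) and −log10 p and q values, all the authors' own. After duplicate filtering the libraries held 21655683 to 22017759 tags and the input 21370300, per the file headers.

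Peaks overlapping by 1 bp or more were merged across lists, in code tested on simulated data (Python 3.11.15, pandas 2.3.3, numpy 2.4.6). Where a list had several peaks in a region, its highest was used. Local input level was computed as (pileup + 1) / fold - 1. It lay within 0.02 of a whole number for 68.0% of 1332 recurrent peaks with an input of at least 1. Over all peaks with such an input the share was 74.1% of 6966. Genes came from RefSeq (GRCm38.p6), without exons, and promoters were aligned with Biopython 1.88. Named are the 15 largest clusters, Sfi1 and Speer genes, the 5 highest pileups and folds, protein-coding genes within 1 kb of a region (at most 30), and each sequence outside the assembled chromosomes with a region. Antibodies were compared by exact permutation over libraries (scipy 1.17.1). The regions and gene lists were chosen with earlier results of these data known. Alternatives were stricter p and q values, equal list lengths, other overlap rules, other scales and each library left out.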

Additional observations from a re-analysis of the deposited data

How the results depend on the processing

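Recurrent regions (425, 174 of them in all 4 lists) numbered 127 and 43 at p-values of 1e-05 or smaller and 53 and 15 at q-values of 0.05 or smaller, since stricter limits keep fewer peaks. Of the 53, JH584304 held 12, chromosome 11 held 10, chromosome 5 held 8, chromosome 17 held 7 and chromosome 6 held 5. With lists cut to equal lengths 104 regions, and with 50% reciprocal overlap 113, were held by all 4 lists, and the other counts stayed within 1.5 times (301, 293 and, with summits within 200 bp, 467 and 175). With 1 library left out, all 3 others were required, which gave 252 without isotype 3, 215 without isotype 4, 251 without c-Maf antibody 3 and 228 without c-Maf antibody 4 (215 to 252). The share on unplaced sequence (19.3%) was 23.6% at p of 1e-05, and 25.8% to 28.4% with 1 library left out. The median input level over the recurrent peaks (6.00) was 12.2 at p of 1e-05, 14.9 at q of 0.05, 8.00 at equal lengths, 9.0 at 50% reciprocal overlap, 5.00 with summits within 200 bp, and 9.0 to 12.0 with 1 library left out. The log2 antibody difference in pileup (0.16) reversed to -0.26 relative to the median of all peaks of each list (exact permutation test, p = 0.3333), and to -0.0124 per base of fragment length, an alternative chosen after seeing the data, as was the count on assembled chromosomes alone (332). It stayed positive, from 0.10 to 0.23, under the others, including each library left out. With the number as a replicate block it was 0.16 (exact sign-flip permutation over 2 pairs, p = 0.5, the smallest possible). No label ties equal numbers to 1 animal or day, and 2 pairs are too few to show pairing. Where lists had few tags at a peak, depth limits the value, and 1 input library serves all lists, so its own error is shared by all 4.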
